A study of Homo sapiens with 11 samples.

Results

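Of the 11929 regions called for SKP2 on chromosomes 1 to 22 in WT HCT116 cells, 1635 overlapped by at least 1 bp with a region called for SKP2 in RepID KO HCT116 cells. These shared SKP2 peaks made up 13.7% of the WT list, and on the other side they took up 1633 of 13518 RepID KO peaks, or 12.1%. The members were therefore chosen by their positions in both SKP2 lists, and everything that follows on these positions, scores and widths is a description of the chosen sites.

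HCT116 is a colon carcinoma line, and its RepID KO derivative was made with CRISPR-Cas9 and a guide against the eighth exon of RepID. Both genotypes were grown unsynchronized and untreated, and each gave 1 SKP2 ChIP-Seq library with the same antibody. The shared sites were also set against 6 lists that had no part in choosing them: origins of the RepID KO HCT116 line, which the labels call a clone, and origins, CUL4A, CDT2, H3K4me3 and H3K9me3 of U2OS cells, an osteosarcoma line. The U2OS cells carried WT RepID, but the series description places the CDT2 ChIP in a stable line that overexpresses full-length FLAG-tagged RepID, whereas the methods speak of U2OS cells. The 8 lists held 407030 regions in all. With 1 library per list there was no spread between replicates and no test between genotypes, and all intervals below are 95% intervals for counting error that treat neighbouring peaks as independent.

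SKP2 is the substrate receptor of an SCF ubiquitin ligase built on CUL1, and it marks CDT1 and the cell cycle inhibitor p27 for degradation. CRL4 is a second ligase family, built on CUL4A or CUL4B, in which CDT2 and RepID (DCAF14, PHIP) serve as substrate receptors, and CRL4 with CDT2 degrades CDT1, SET8 and p21 on chromatin. Origins of replication are licensed by loading of the MCM helicase with the help of CDT1, H3K4me3 marks active promoters, and H3K9me3 marks heterochromatin.

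The WT and RepID KO calls at a shared site mostly lay on top of each other. The distance between the 2 centres had a median of 78 bp (quartiles 20 and 258 bp), and it was at most 100 bp in 907 of 1635 sites (55.5%) and at most 500 bp in 1498 (91.6%). The median number of bases in common was 338, and the RepID KO call covered a median of 88.6% of the WT peak. At least 50% of the WT peak was covered at 1274 sites (77.9%), whereas 90 sites (5.50%) had at most 100 bp in common. The pairing was nearly 1 to 1, since 6 WT peaks had 2 RepID KO partners and 8 RepID KO peaks had 2 WT partners. No pair had identical borders, and at 814 sites (49.8%) neither call lay wholly inside the other.

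WT peaks without a partner were rarely near misses. Of the 10294 other WT peaks, 21 (0.204%) lay within 100 bp of a RepID KO peak and 130 (1.26%) within 1000 bp. Their median distance to the nearest RepID KO peak was 50047.5 bp. Just inside the rule were sites with 1, 1 and 4 bases in common, with WT and RepID KO scores of 822 and 742 at chr12:130231515-130232211, 433 and 394 at chr2:46410639-46410877, and 352 and 410 at chr1:824914-825204. Just outside were WT peaks with a score of 230 at chr4:55603431-55603722, 319 at chr10:92778525-92778976 and 1454 at chr13:112087174-112087373, which missed their neighbours, scored 188, 249 and 1082, by 3, 11 and 11 bp. The scores of the sites on both sides of the threshold thus overlapped.

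Shared sites lay high in both lists by the authors' score, which is 10 times the last column of the SKP2 lists rounded down. The methods name MACS2 broad calls for SKP2, and the same column of the histone lists, which have that layout, is −log10 q. The score is thus read here as the significance of a call and not as its signal. The median WT score was 1215 (quartiles 601 and 2010.5, range 209 to 6079) for shared peaks and 353 for the other WT peaks. In the RepID KO list the shared peaks had a median of 1067, against 337 for the rest of that list. When each list was divided by score into 20 groups of equal size, the shared part went from 6 of 597 peaks (1.01%) in the lowest WT group to 331 of 596 (55.5%) in the highest, and in the RepID KO list from 0.592% to 73.5%. Still, 42.0% of the highest-scoring 2385 WT peaks were shared, so a high WT score alone did not bring a partner. Of the 100 highest WT peaks 58 were shared, and of the 100 highest RepID KO peaks 88.

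**Figure D1:**
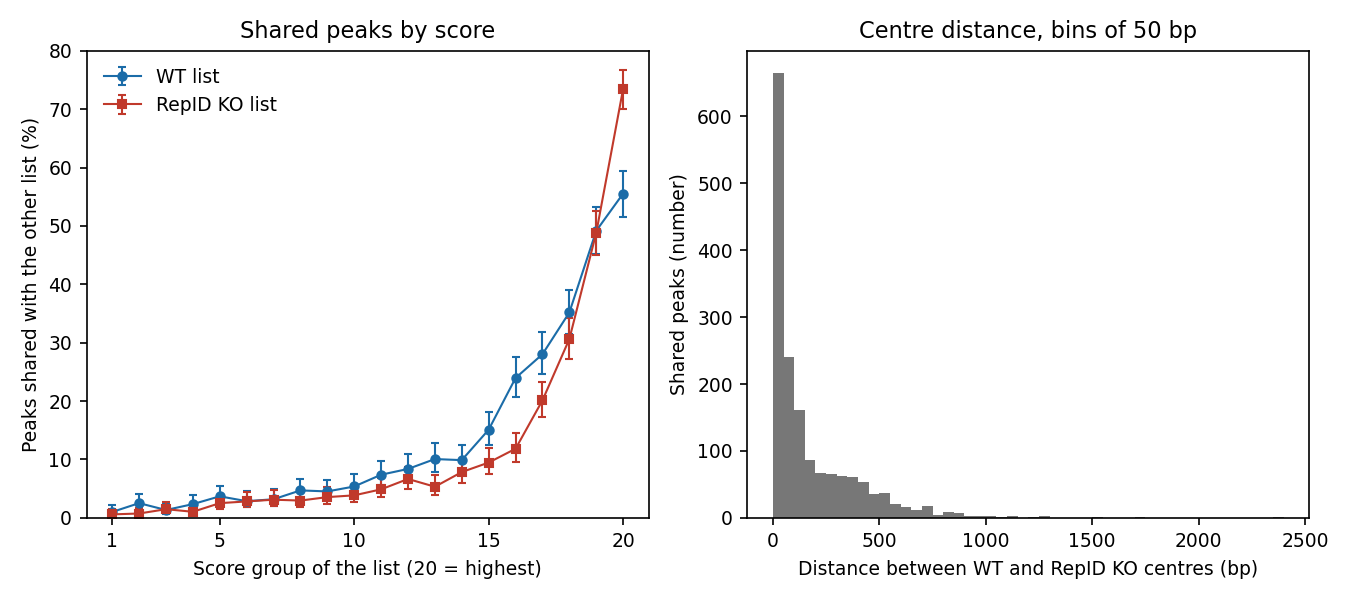
Left, percentage of SKP2 peaks shared with the other genotype (y axis) in 20 equal groups of each list by score (x axis), with 95% Wilson intervals; the share reached 55.5% in the highest WT group and 73.5% in the highest RepID KO group. Right, number of shared peaks (y axis) by distance between the WT and RepID KO centres in bp (x axis, bins of 50 bp); the median was 78 bp.

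Sites kept their order between the genotypes. Over the 1635 pairs the WT and RepID KO scores had a Spearman rho of 0.898, and it was 0.754 within the 1001 shared peaks of the highest WT score group of 5 and 0.779 in the 634 others. All points share the same 2 libraries of 1 cell line, so this is a description without a p-value. Widths were far less alike, with a rho of 0.385 and medians of 493 bp in WT and 453 bp in RepID KO. The score thus ordered the sites much the same way in both genotypes and the borders of the call did not.

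The RepID KO score was a median of 0.926 of the WT score (quartiles 0.741 and 1.14), and the 2 scores were within 1.5-fold of each other at 1248 sites (76.3%). It was lower at 976 sites and higher at 659. Since a list's scores also depend on its sequencing depth, which is unknown here, the ratio itself does not tell the amount of SKP2 on chromatin.

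The highest shared site by WT score, chr9:98330025-98330826, had a score of 6079 in WT and 4515 in RepID KO, and it met CDT2, CUL4A and a RepID KO origin. The highest by RepID KO score was chr14:69365608-69366353, with 5235 in WT and 5331 in RepID KO, and it met CUL4A, H3K9me3 and both origin lists but no CDT2 peak. These 2 sites were among the highest 8 by both scores. The same held for a further site, chr2:152930732-152931374, which scored 4751 and 4691 and met every list except H3K4me3.

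The other leading WT sites were lower in RepID KO. The site chr10:46528016-46528666 scored 4966 in WT and 3426 in RepID KO and met every list except H3K4me3, and chr1:184079781-184080192 scored 4792 and 3899 and met only the origin lists. A pair of sites on chromosome 8 had WT scores of 5216 and 4771 and RepID KO scores of 3984 and 2743. In this group of 8, 7 sites had the lower score in RepID KO.

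Among the 8 leading RepID KO sites, 6 had the higher score there. The site chr11:115017604-115019715 scored 4176 in WT and 4840 in RepID KO. The site chr7:4756888-4757143 went from 2907 to 4424, chr4:49306880-49308511 from 2928 to 4460 and a site on chromosome 8 from 3004 to 4681, which were ratios of 1.52, 1.52 and 1.56. The remaining one, chr4:49515062-49515287, scored 4137 and 4418. None of these 5 met a CDT2 peak, while all met CUL4A and a RepID KO origin. Of the same 8, chr9:98330025-98330826 and chr2:152930732-152931374 did meet CDT2. Over all shared peaks, 40.0% met CDT2, 53.0% CUL4A and 78.2% a RepID KO origin. Each group of 8 was ranked on 1 of the 2 scores, which by itself favours that score in the ratio.

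All 6 other lists were met by shared sites, most often the origins. RepID KO origins were met by 1278 shared peaks, 78.2% (76.1 to 80.1%), against 49.4% of all WT peaks. U2OS origins were met by 1001, or 61.2% (58.8 to 63.6%), against 54.8% of all WT peaks. RepID KO origins met by shared peaks had a median width of 4600 bp, against 2000 bp over that list. For other WT peaks it was 4400 bp, and the median centre distances were 944.5 and 950 bp. The U2OS origins met had median widths of 2800 bp at shared and 3400 bp at other WT peaks, against 2400 bp over that list. Centre distances there had medians of 524 and 733.5 bp. Both origin lists were met by 852 shared sites (52.1%), the RepID KO origins alone by 426 (26.1%), the U2OS origins alone by 149 (9.11%) and neither by 208 (12.7%). Among the other WT peaks, the corresponding shares were 33.8%, 11.1%, 20.01% and 35.1%. Shared sites thus met origins of the RepID KO line alone more often than U2OS origins alone, and the other WT peaks as a whole showed the opposite order. Among the highest-scoring peaks, the highest of 5 equal groups of WT score, the order was the same in both, with 34.0% and 4.90% of shared peaks and 19.5% and 9.39% of the other WT peaks.

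CUL4A, the cullin scaffold of CRL4, was met by 867 shared peaks, or 53.0% (50.6 to 55.4%), against 36.2% of all WT peaks. CDT2 was met by 654, or 40.0% (37.7 to 42.4%), against 21.3% of all WT peaks, and 491 of them met CUL4A too. The median distance between the SKP2 and CDT2 centres was 86.5 bp, near the 81.2 bp of the other WT peaks that met CDT2. Of the shared peaks 87.9%, and of these other peaks 76.7%, lay wholly inside the CDT2 region. The CDT2 regions met by shared peaks were also wider, with medians of 1095 and 725 bp. CUL4A regions are much wider, and there the median centre distance was 660.5 bp, and 588 bp for other WT peaks.

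H3K9me3 was met by 543 shared peaks, 33.2% (31.0 to 35.5%), against 20.3% of all WT peaks, and H3K4me3 by 190, 11.6% (10.2 to 13.3%), against 9.01%. Neither mark was listed at 993 shared sites (60.7%), against 73.8% of all WT peaks, and both were at 91 (5.57%), against 3.10%. In the highest of 5 groups of WT score, neither mark was listed at 55.5% of shared and 57.7% of other WT peaks, and both were at 7.29% and 8.67%. Compared with the other WT peaks, the shared sites were higher by 33.3 points (31.0 to 35.4) for RepID KO origins, 21.6 points (19.2 to 24.1) for CDT2 and 19.5 points (16.9 to 22.03) for CUL4A. The differences were 15.01 points (12.6 to 17.4) for H3K9me3, 7.45 points (4.88 to 9.98) for U2OS origins and 3.02 points (1.46 to 4.75) for H3K4me3. Every one of these intervals lay above 0 before the scores of the peaks were taken into account.

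**Figure D2:**
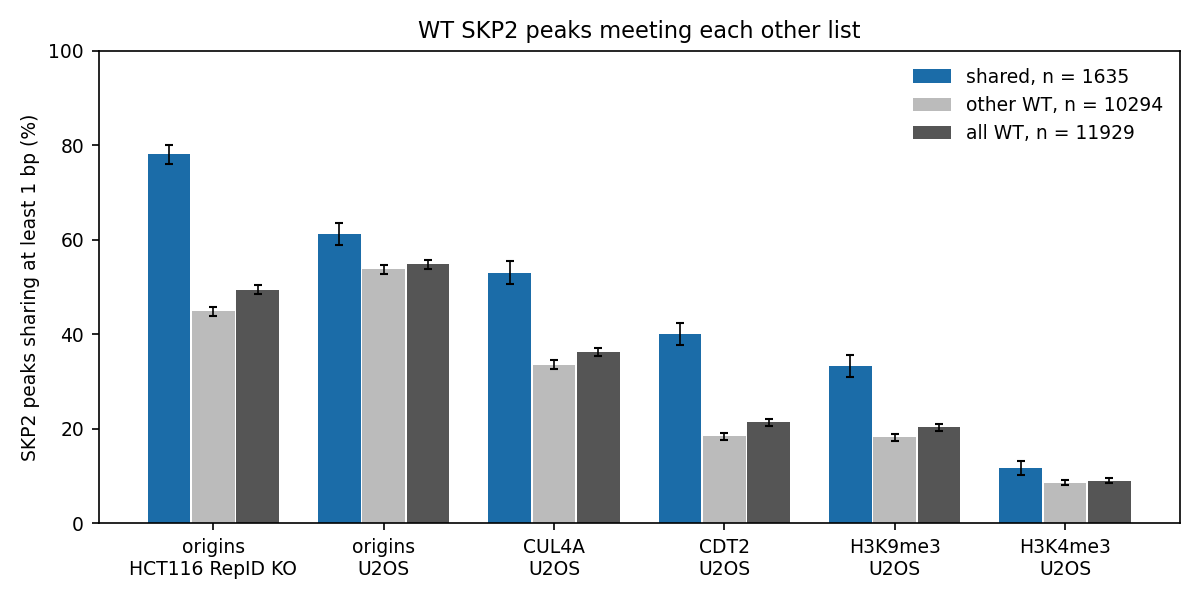
Percentage of SKP2 peaks (y axis) that shared at least 1 bp with each of the 6 other lists (x axis), for the 1635 shared peaks, the 10294 other WT peaks and all 11929 WT peaks; bars start at 0 and error bars are 95% Wilson intervals. The shared peaks were higher in all 6 lists, by 33.3 points over the other WT peaks for RepID KO origins and by 3.02 points for H3K4me3.

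Shared sites score higher, and high-scoring WT peaks met most lists more often, so the comparison was repeated within 5 equal groups of WT score. RepID KO origins were met more often by shared peaks in 5 of 5 groups, with an interval above 0 in each. In group 5, with scores from 895 to 6079, they were met by 870 of 1001 shared peaks (86.9%) and by 1090 of 1384 other WT peaks (78.8%), a difference of 8.16 points (5.11 to 11.1). In group 1 the shares were 17 of 43 (39.5%) and 24.9%. Scores still differed within a group. Of the 20 smaller score groups of WT peaks, those inside group 5 ran from 28.0% to 55.5% shared.

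For CDT2 no clear difference was seen within groups of WT score, with the shared peaks higher in 3 of 5 groups. In score group 5 it was met by 51.1% of shared and 53.1% of other WT peaks, a difference of -1.96 points (-6.01 to 2.10), and in none of the 5 groups did the interval leave out 0. For H3K9me3 the interval also took in 0 in all 5 groups, although the share was higher for shared peaks in each of them, with 39.7% and 36.3% in group 5. For CUL4A the interval lay above 0 in the lowest group alone, and in group 5 the shares were 59.4% and 56.4%.

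U2OS origins went the other way among the high-scoring sites. In score group 5, 57.8% of shared peaks and 68.6% of other WT peaks met one, a difference of -10.8 points (-14.7 to -6.88), whereas in group 2 the shared peaks were higher by 13.9 points (3.15 to 23.9). H3K4me3 was met more often by shared peaks in groups 2 and 3, with 15.1% against 6.61% and 13.1% against 7.97%, and by 12.1% against 14.6% in group 5. The pattern for these lists thus depended on the score of the site.

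**Figure D3:**
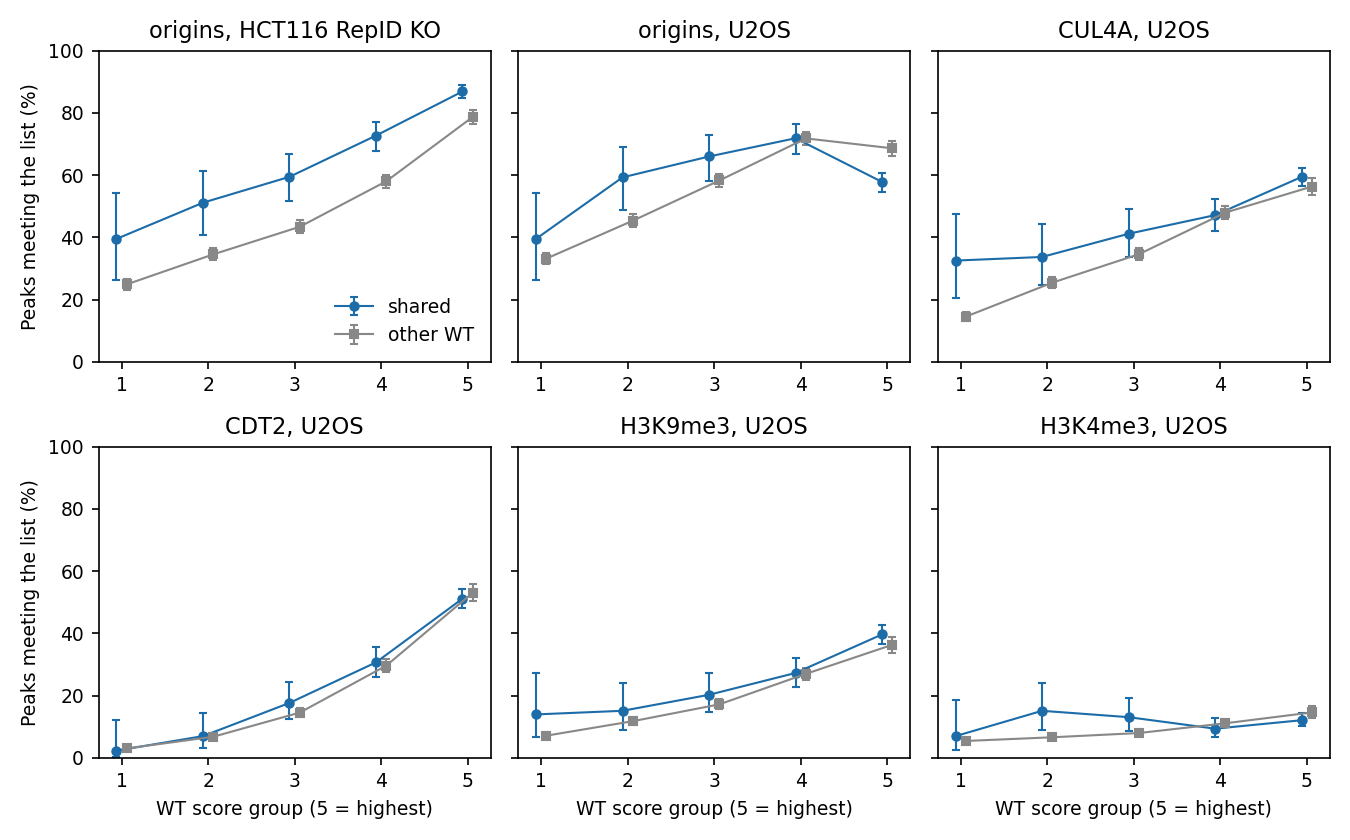
Percentage of WT SKP2 peaks (y axis) meeting each of the 6 lists in 5 equal groups of WT score (x axis, 5 is the highest), for shared peaks and other WT peaks, with 95% Wilson intervals. The lines for RepID KO origins stay apart in all 5 groups (86.9% and 78.8% in group 5), those for CDT2 lie together (51.1% and 53.1%), and those for U2OS origins cross (57.8% and 68.6%).

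Seen from the RepID KO list, the shared peaks met the other lists at nearly the same rates. They are the overlapping partners of the same sites, so this likeness follows from the rule. RepID KO origins were met by 78.2% of the 1633 shared RepID KO peaks and 45.9% of all RepID KO peaks, and U2OS origins by 61.5% and 56.8%. The shares were 53.1% and 34.8% for CUL4A, 39.9% and 16.9% for CDT2, 32.8% and 18.9% for H3K9me3, and 11.5% and 6.63% for H3K4me3. Within 5 groups of RepID KO score, the interval of the difference to the other RepID KO peaks lay above 0 in 4 groups for RepID KO origins, in 2 for CDT2, in 2 for H3K4me3 and in 1 for H3K9me3. It lay below 0 in 2 groups for U2OS origins, with -19.4 points (-22.8 to -16.03) in the highest, and in 1 for CUL4A, with -4.36 points (-8.07 to -0.663).

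Both sides were then brought to equal scores, with the other peaks of a list weighted to the scores of its shared peaks in 20 score groups. The share meeting RepID KO origins was higher for shared sites by 8.37 points on the WT side and by 3.86 points on the RepID KO side. The share meeting U2OS origins was lower by both, with differences of -4.43 and -13.5 points. CDT2 gave -3.35 points on the WT side and 4.23 on the RepID KO side, and CUL4A gave 1.79 and -7.79. The sign of the weighted difference was thus the same from both sides for both origin lists, and it turned for CDT2 and CUL4A. The differences were small for H3K9me3 (1.60 and 0.835 points) and for H3K4me3 (-1.30 and -0.622 points). None of these weighted values has an interval, and both sides hold the same shared sites. For H3K4me3 the shared peaks were higher in 3 of 5 WT and 4 of 5 RepID KO score groups, with 2 intervals above 0 on each side. On the WT side the sign for H3K4me3 turned with the score, as the shared peaks were lower in groups 4 and 5. On the RepID KO side they were lower in group 1 alone, although the weighted difference was below 0.

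The RepID KO origins came from the genotype that also gave 1 of the 2 SKP2 lists, and origins of WT HCT116 cells were not analysed here. Cell line and genotype cannot be told apart in the comparison of the 2 origin lists.

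The CRL4 proteins and the histone marks were found together at shared sites, as they were at the other WT peaks. Of the 654 shared peaks with CDT2, 75.1% met CUL4A and 55.2% met H3K9me3, against 38.3% and 18.6% of the 981 without CDT2. Among the other WT peaks these shares were 69.2% and 49.5% with CDT2 and 25.6% and 11.2% without. Of the 543 with H3K9me3, 66.5% met CDT2 and 79.2% met CUL4A, against 49.9% and 67.1% of other WT peaks with H3K9me3. Of the 190 with H3K4me3, 85.3% met CUL4A and 48.4% met CDT2, against 66.8% and 32.9% of other WT peaks with H3K4me3. The shared and other WT peaks compared here were not brought to equal scores. CUL4A was thus the list that shared sites with any of these features met most often apart from origins.

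Sites that met more lists had higher scores up to 5 lists, with median WT scores of 943 for 1 list and 1708 for 5. The 105 shared sites (6.42%) that met no other list had a median WT score of 427, against 24.6% of all WT peaks meeting none, and the 43 (2.63%) that met all 6 had a median of 1695, against 1.42% of all WT peaks meeting all. The most frequent combination was both origin lists alone, at 209 sites (12.8%, against 9.37% of all WT peaks). CUL4A with both origin lists, at 148 sites, was about as frequent as in the whole WT list (9.05% and 8.76%). RepID KO origins alone were met at 134 sites (8.20% and 5.6%), and CDT2, CUL4A and H3K9me3 with both origin lists at 128 (7.83% and 3.81%).

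The highest-scoring sites meeting all 6 lists were chr5:856430-857175, with WT and RepID KO scores of 4870 and 4117, chr2:5273550-5274174, with 4729 and 4055, and chr13:114906872-114907760, with 3877 and 2904. The highest-scoring that met none were chr4:139788183-139788820, with 4072 and 2698, chr11:131550317-131550710, with 2570 and 2340, and chr1:241469518-241470138, with 2291 and 2016. High scores in both genotypes were therefore seen also at sites outside all 6 lists.

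The strength of the partner call differed as well. CDT2 regions met by shared peaks had a median score of 87.5, against 40.3 for those met by other WT peaks and 27.1 over the whole CDT2 list, and within score group 5 the medians were 112 and 88.8. H3K4me3 regions met by shared peaks had the lower enrichment. Their median fold enrichment was 4.18 at shared and 8.21 at other WT peaks, and 3.53 and 4.71 within score group 5, with 7.10 over all H3K4me3 regions. Their median −log10 q was lower too, with 10.1 and 27.4, and 8.92 and 13.6 within score group 5. Shared sites in the H3K4me3 list thus lay in weaker regions of that mark by both measures.

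For H3K9me3 the measures went apart. The median fold enrichment was 2.94 at shared and 3.82 at other WT peaks, and 2.81 and 2.89 within score group 5. The median −log10 q was higher at shared peaks, with 4.37 and 3.28, and 5.03 and 4.84 within score group 5, and the H3K9me3 regions were wider, with medians of 567 and 414 bp.

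Shared sites with a CDT2 peak had lower RepID KO scores relative to WT than shared sites without one. The median ratio of the RepID KO to the WT score was 0.820 (0.797 to 0.844) at the 654 sites with CDT2 and 0.998 (0.982 to 1.02) at the 981 without. The RepID KO score was the higher one at 25.8% and 49.9% of these sites. The ratio was lower with CDT2 in each of 5 groups of equal size by the geometric mean of both scores, from 0.766 against 0.994 in group 3 to 1.002 against 1.02 in group 1, where the intervals overlapped widely. The part of sequencing depth in this difference was not tested.

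**Figure D4:**
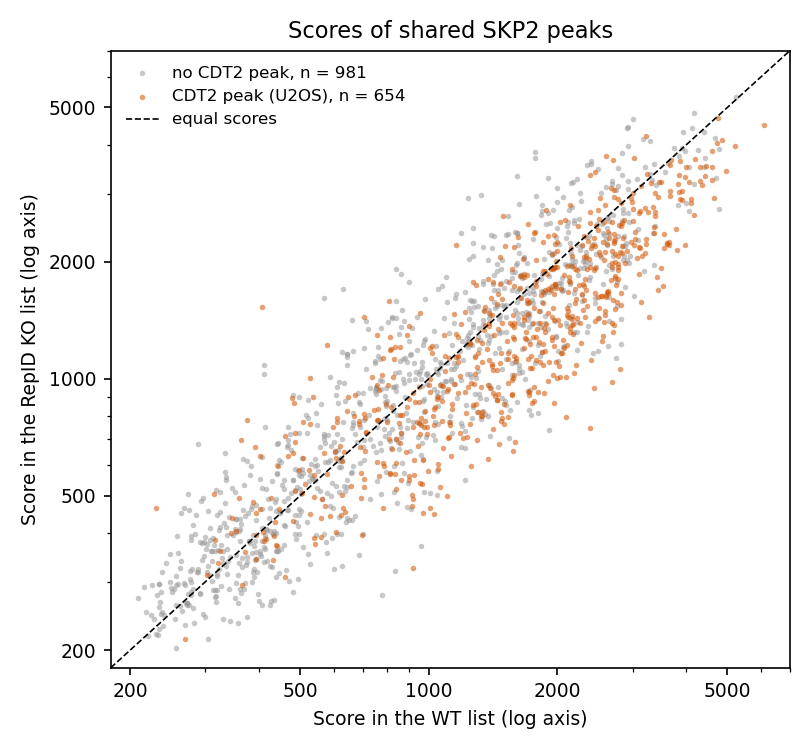
Score of each of the 1635 shared SKP2 peaks in the WT list (x axis, log scale) and in the RepID KO list (y axis, log scale), coloured by overlap with a CDT2 region of U2OS cells; the dashed line marks equal scores. The 654 sites with CDT2 lie mostly below the line (median ratio 0.820), whereas the 981 sites without it lie around the line (median ratio 0.998).

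Sites at U2OS origins went the other way. Their median ratio was 0.996 (0.981 to 1.01) at 1001 sites, against 0.839 (0.815 to 0.859) at the 634 sites outside U2OS origins, and it was higher in each of the 5 groups. Taken jointly, 290 sites with CDT2 and no U2OS origin had a median ratio of 0.748 (0.721 to 0.775), and the RepID KO score was higher at 32 of them (11.0%). At the 637 sites with a U2OS origin and no CDT2 the ratio was 1.04 (1.01 to 1.07), and the RepID KO score was higher at 357 (56.0%). The sites with both (364, ratio 0.911) and with neither (344, ratio 0.919) lay between.

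Over all shared sites, the other lists separated the ratios less. The median was 0.963 with and 0.903 without CUL4A, 0.954 and 0.890 for RepID KO origins, 0.996 and 0.919 for H3K4me3, and 0.903 and 0.941 for H3K9me3. With CUL4A and with RepID KO origins the ratio was the higher one in 5 of 5 groups by the geometric mean of both scores. For RepID KO origins the medians lay further apart within each group than over all sites. They were 1.04 with and 0.850 without such an origin in group 2, and 0.888 and 0.711 in group 4. These ratios come from the same contrast that chose the sites, and they are given as a description.

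Shared sites were more frequent near chromosome ends and near the largest stretch of each chromosome without a region in any list. Within 2 Mb of the ends lay 233 shared sites (14.3%) and 5.94% of the other WT peaks, and within score group 5 the shares were 15.5% (13.4 to 17.9%) and 12.6% (11.0 to 14.5%). Within 2 Mb of the largest stretch lay 124 shared sites (7.58%) and 3.02% of the others, and 10.1% (8.37 to 12.1%) and 4.91% (3.89 to 6.18%) within score group 5. Within score group 5 the intervals thus overlapped for the ends and lay apart for the largest stretch. How well reads can be placed in these stretches was not analysed here.

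Most shared sites stood alone. When sites less than 100 kb apart were joined, 1075 (65.7%) remained single and 560 fell into 219 clusters, of which 27 had 4 or more sites. The same count is not given for other WT peaks, so it does not set shared sites apart from them. The clusters named here were chosen after their values were seen. The largest, chr4:49281584-49331503, held 10 shared sites, which were all of its WT peaks. All 10 met CUL4A and both origin lists, 9 met H3K4me3 and none met CDT2, and the median scores were 2878 in WT and 3254 in RepID KO.

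The next cluster, chr21:10780580-10857025, had the opposite makeup. Its 8 shared sites all met CDT2, CUL4A and RepID KO origins, and none met a U2OS origin or H3K4me3, with median scores of 1437 and 1136.5. The cluster chr4:49104867-49152410 was alike, with 7 shared sites among 10 WT peaks, of which 6 met CDT2, all met CUL4A and RepID KO origins and none met a U2OS origin, and its median scores were 1897 and 1443. A further cluster, chr7:57545943-57696695, had 8 shared sites, of which 7 met CDT2. All 4 clusters lay within 2 Mb of the largest stretch without regions on their chromosome, and the first cluster differed from the others in the order of its 2 median scores. Many sites of such a cluster can share 1 partner region, with up to 10 shared sites in 1 U2OS origin, 10 in 1 CUL4A region and 8 in 1 RepID KO origin.

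Every chromosome held shared sites. The share of WT peaks that were shared ran from 58 of 666 on chromosome 3 (8.71%, 6.80 to 11.1%) to 48 of 199 on chromosome 21 (24.1%, 18.7 to 30.5%), and chromosome 19 was second with 20.4%. Within score group 5 the lowest share was 31.0% on chromosome 6 and the highest 54.2% (42.7 to 65.2%) on chromosome 21. Chromosome 4 followed with 52.5% (42.8 to 61.9%), and chromosome 19 had 41.2%, against 42.0% over all chromosomes. The density went from 2.93 shared sites per 10 Mb on chromosome 3 to 18.6 on chromosome 19. The median ratio of the RepID KO to the WT score lay between 0.837 on chromosome 22 and 1.004 on chromosome 5, with quartiles that overlapped. The high share on chromosome 19 was thus not seen among its high-scoring WT peaks. Chromosome 21 stood first in both rankings, but in score group 5 its interval overlapped widely with that of chromosome 4. Its 48 shared sites include the 8 of the cluster chr21:10780580-10857025.

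**Figure D5:**
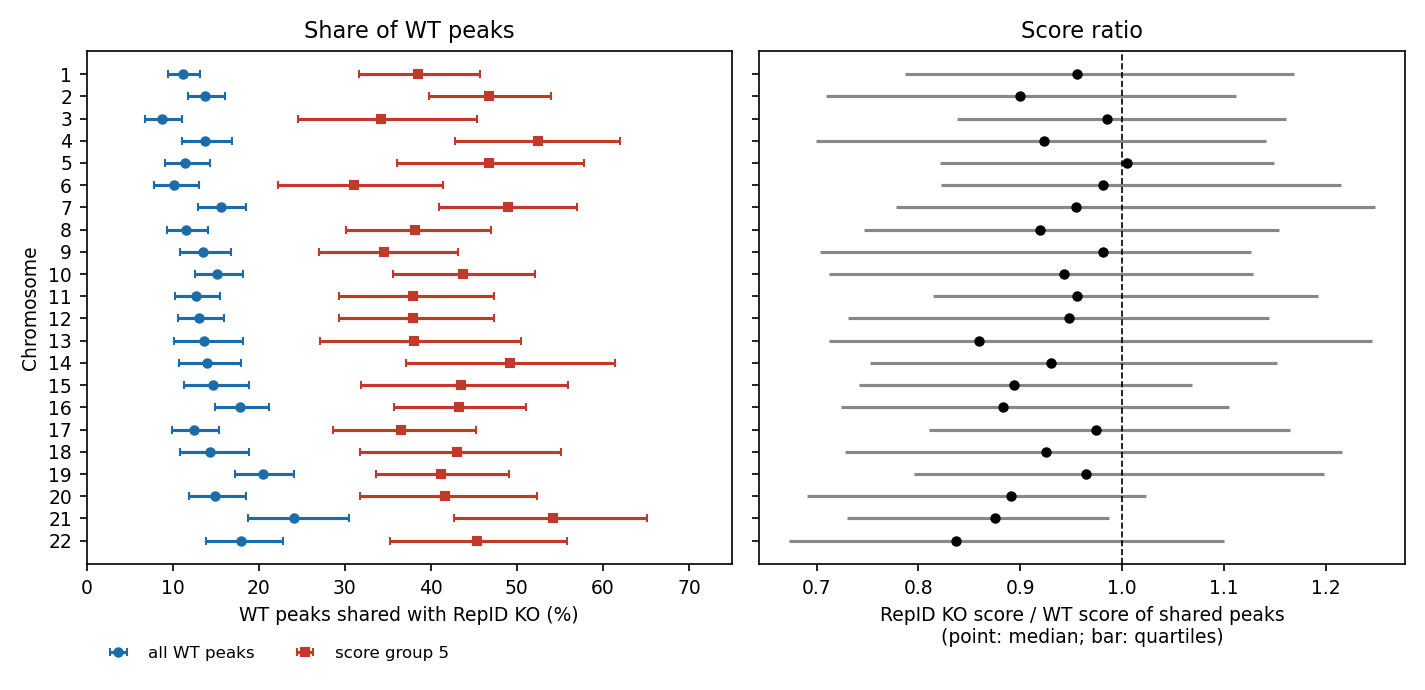
Left, percentage of WT SKP2 peaks shared with RepID KO (x axis) on each chromosome (y axis), for all WT peaks and for score group 5, the highest of 5 groups, with 95% Wilson intervals; chromosome 21 was highest in both, with 24.1% and 54.2%. Right, ratio of the RepID KO to the WT score of shared peaks (x axis), with the median as a point, quartiles as a bar and equal scores as a dashed line; medians lay between 0.837 and 1.004.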

How the data were processed

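Chromatin of HCT116 WT and RepID KO cells was immunoprecipitated for SKP2 with 1 library each, and 6 further region lists of the series were used. The authors called all regions from their reads before depositing them, on hg19 per the submitters' processing notes, which name MACS and SICER. The methods name MACS2 broad peaks for SKP2 and CDT2 and SICER for the rest, but the columns of the deposited histone lists are those of MACS2 broad calls. The score of each SKP2 or CDT2 region is the authors' own. In the histone lists the authors' fold enrichment is a ratio over the control, and significance was deposited as −log10 q. The SKP2 score equalled 10 times the last column, rounded down, in 12221 of 12221 WT and 13884 of 13885 RepID KO peaks of all chromosomes, and the other columns were not used. The methods name IgG controls and the labels list inputs, so which control was used for SKP2 is unsettled. The lists give no library totals, so depth was unknown.

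Overlaps of at least 1 bp were counted on chromosomes 1 to 22, and each WT peak was paired with the RepID KO peak it shared most bases with. Shares have Wilson 95% intervals, differences Newcombe intervals and median ratios binomial order-statistic intervals. Named sites were the 8 shared peaks with the highest score in either list, the 3 highest meeting all 6 or none of the other lists, and 3 on each side of the threshold. Coordinates are 1-based. The members, lists and comparisons were chosen with earlier results of these data known. Gene positions, GC content, motifs, sequences and pathway genes were not analysed here, because no genome or annotation of that build was used. Overlap counts were tested on simulated data. Alternatives covered the overlap rule, score filters, partner thresholds and score weighting. Calculations used Python 3.11.15, NumPy 2.4.6, SciPy 1.17.1 and pandas 2.3.3, and figures matplotlib 3.10.9.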

Additional observations from a re-analysis of the deposited data

Results flagged for a closer look

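Chromosomes X and Y were outside the comparison, and shared SKP2 peaks were present on both. On chromosome X, 38 of 230 WT peaks (16.5%, 12.3 to 21.9%) overlapped with a RepID KO peak, near the 13.7% over chromosomes 1 to 22. On chromosome Y it was 38 of 62 WT peaks (61.3%, 48.8 to 72.4%) and 38 of 63 RepID KO peaks. The share on chromosome Y was higher than on any of chromosomes 1 to 22, where the highest was 24.1%. The scores of the chromosome Y peaks were not compared. Within score group 5, chromosome 21 had 54.2%, inside the interval of chromosome Y. Chromosomes X and Y were listed because they lie outside the comparison and above what a count of 0 allows (1.3% and 4.84%). Any count of several peaks passes that limit.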

How the results depend on the processing

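Of 84 alternative values, 48 moved by less than their counting interval, 26 moved by more and 10 changed sign. With 50% of the WT peak covered, 50% of both peaks covered, or a gap of up to 1 kb allowed, 10.7%, 9.26% and 14.8% of WT peaks were shared, and the median centre distance was 46.8, 35.5 and 92.5 bp. In the higher-scoring 50% of each SKP2 list, 23.6% were shared, the rank correlation was 0.853, and 45.1% of shared peaks met CDT2, 56.2% CUL4A, 36.2% H3K9me3 and 82.7% RepID KO origins. With the higher-scoring 50% of CDT2 regions 35.8% met CDT2. With 50% of the SKP2 peak covered, 23.9% met H3K9me3 and 9.24% H3K4me3, and with a −log10 q of at least 2, 27.6% met H3K9me3. With a gap of up to 1 kb, 81.2% met RepID KO origins and 63.6% U2OS origins.

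Weighting the other WT peaks to the scores of the shared peaks in 20 score groups was chosen after seeing the data. It was run alone, with 1 kb around each SKP2 centre, and without the 2 Mb at chromosome ends and the largest gap. In this order, the difference between shared and other WT peaks, in points, was -3.35, -3.3 and -4.05 for CDT2, 1.79, 1.78 and -0.0868 for CUL4A, and 1.6, 1.39 and 1.04 for H3K9me3. It was -1.3, -1.78 and -1.64 for H3K4me3, 8.37, 7.96 and 8.35 for RepID KO origins, and -4.43, -4.42 and -3.2 for U2OS origins. RepID KO origins and H3K9me3 alone kept the sign of the unweighted difference in all 3. The alternatives for gene position and GC content were not run, because no annotation or genome of the build was used. No paired analysis was possible because each genotype and antibody had 1 library. Unknown depth limits every statement on scores, and the share of shared peaks depends on the thresholds of both lists.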

Other observations

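Some of the highest-scoring WT peaks had no RepID KO partner. These were chosen after their values were seen. The WT peaks ranked 2 to 6 by score all lacked one, and among them chr11:1092728-1093531, with a score of 5724, lay 119211 bp from the nearest RepID KO peak. The next 2, at chr10:42599777-42600085 and on chromosome 8, scored 5622 and 5450 and lay 1522 and 1235 bp from one.

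Among shared sites, the RepID KO score was over 2-fold higher at 18 and over 2-fold lower at 45. The largest increase, chosen after its value was seen, was at chr6:34027179-34028146, from 408 in WT to 1529 in RepID KO, where 304 bases were in common. That site met CDT2, CUL4A and both origin lists. The largest decrease was at chr13:24929891-24931565, from 2388 to 747, with 529 bases in common, and this site met CDT2, CUL4A, H3K9me3 and a RepID KO origin.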
